A study of Mus musculus with 14 samples.

Results

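The regions described here were the H3K4me3 peaks next to transfer RNA genes. Membership required 1 base or more of the peak to fall at most 1 kb from a nuclear tRNA gene that RefSeq annotates on chromosomes 1 to 19 of mm10 (GRCm38.p6). The rule found 278 peaks among the 25431 of the whole list, 24501 of which lay on these chromosomes. They stood next to 251 of the 386 annotated tRNA genes (65.0%, Wilson 95% interval 60.1 to 69.6). The interval covers counting error only, and genes of a cluster can share a peak and are not replicates of each other. All comparisons below are therefore descriptions by counts, medians and such intervals, and none was tested.

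H3K4me3, the trimethylation of lysine 4 of histone H3, was measured by chromatin immunoprecipitation and sequencing in iMEF cells, immortalised mouse embryo fibroblasts. The cells came from Ash2l fl/fl mice with an inducible Cre-ER recombinase, and their endogenous Ash2l had lost exon 4. They lived on human ASH2L fused at its N terminus to FKBP12F36V and delivered by a lentivirus. For the sequencing of histone marks the paper names 1 clone, NG3. ASH2L is a core subunit of the COMPASS/KMT2 complexes that methylate H3K4, and the compound dTAG-13 sends the fusion protein to the proteasome. Of the 14 libraries, 12 were H3K4me3 libraries in 6 groups of 2 replicates (untreated, and treated with dTAG for 30 min, 2 h, 4 h, 8 h or 16 h) and 2 were inputs, 1 untreated and 1 treated for 16 h. All groups, the untreated one included, carried the deletion and the fusion protein. The list joined the peaks of all H3K4me3 libraries and held positions only, so no value below belongs to a single library or time, depth per library is unknown and no change after dTAG was measured here.

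RNA polymerase III (Pol III) transcribes tRNA genes from promoters that lie inside the gene. The transcription factor TFIIIC binds an A box and a B box in the gene body and recruits TFIIIB, which sits just upstream, and the polymerase stops at a short run of T on the coding strand. H3K4me3 is best known as the mark of nucleosomes beside active promoters of RNA polymerase II (Pol II), the enzyme of messenger RNA genes, and it is also found beside active tRNA genes. Mammalian genomes carry many copies of tRNA genes per amino acid, some scattered and some in clusters, and only part of them is used in a given cell type.

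Identical tRNA genes could stand with and without a peak. Of the 55 gene sequences in 2 or more copies, 20 had copies of both kinds, 30 had all copies at a peak and 5 had no copy at one. Among the genes over 1 kb from every Pol II transcription start site (TSS) of GENCODE M21, 176 distinct sequences were present, single copies included. Of these, 16 had copies of both kinds. Copies without a peak differed in how much of their flanks occurred once in the genome, from 3.7% at n-TGtcc4 to 100% at n-TEttc8. No count of sequences with copies of both kinds was limited to unique flanks, and the part of read mapping was not tested. The following 6 sequences, from RefSeq GRCm38.p6, are 1 such pair, that with the most unique flanks, from each of the isotypes with most pairs. They are shown because the gene sequence, introns apart, is the same in both genes of a pair while only the first has a peak. Capitals mark the A box core (TNGNNNAG) and the B box (GTTCNANNC), and the intron of the Tyr genes is left out.
n-TDgtc4 (Asp, chr1:171037029-171037100, minus strand, peak) and n-TDgtc10 (chr11:7869777-7869848, plus strand, no peak): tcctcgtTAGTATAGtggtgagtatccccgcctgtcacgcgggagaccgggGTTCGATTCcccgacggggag
n-TEttc7 (Glu, chr7:58399315-58399386, plus strand, peak) and n-TEttc8 (chr9:104408667-104408738, minus strand, no peak): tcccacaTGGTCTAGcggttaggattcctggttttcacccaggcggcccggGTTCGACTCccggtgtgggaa
n-TGtcc2 (Gly, chr1:171037997-171038068, minus strand, peak) and n-TGtcc5 (chr1:171072334-171072405, minus strand, no peak): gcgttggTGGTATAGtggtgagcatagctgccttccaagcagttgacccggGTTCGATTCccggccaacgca
n-TLaag7 (Leu, chr13:21170036-21170117, plus strand, peak) and n-TLaag6 (chr11:48856974-48857055, minus strand, no peak): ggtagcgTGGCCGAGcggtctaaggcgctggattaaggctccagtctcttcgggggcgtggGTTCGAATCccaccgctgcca
n-TSaga5 (Ser, chr13:21919215-21919296, plus strand, peak) and n-TSaga6 (chr13:21927857-21927938, plus strand, no peak): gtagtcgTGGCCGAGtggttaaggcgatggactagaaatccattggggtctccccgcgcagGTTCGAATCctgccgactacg
n-TYgta3 (Tyr, chr13:23425646-23425734, minus strand, peak) and n-TYgta7 (chr13:23432990-23433077, minus strand, no peak): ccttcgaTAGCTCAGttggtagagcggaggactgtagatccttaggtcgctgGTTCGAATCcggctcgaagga

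The CpG content around the genes of a pair did not differ in 1 direction. As a ratio to that expected from the C and G of the 500 bp on either side, it was higher beside the copy with a peak in 4 pairs: 0.68 against 0.27 for Ser, 1.16 against 0.83 for Gly, 0.55 against 0.42 for Asp and 0.87 against 0.84 for Leu. It was lower beside the copy with a peak in the other 2, at 0.38 against 0.56 for Tyr and 0.41 against 0.45 for Glu. A run of TTTT within 20 bases downstream was absent at n-TSaga6 and n-TEttc8, and the nearest peak to n-TEttc8 was 63958 bp away. The peak-less copies n-TLaag6 and n-TYgta7 had peaks 1349 and 1939 bp away, outside the 1 kb limit. In 2 pairs the copy without a peak lay in sequence that was less often unique, and the part of read mapping was not tested. Of the 75-base words in the 1 kb on either side, 6.85% occurred once in the genome at n-TGtcc5 and 56.5% at n-TDgtc10, against 99.3% and 99.95% at their partners. With patches and alternate-strain loci counted as well, the value was 0% at n-TDgtc10 and also low at n-TLaag6, at 20.8%.

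The windows around the Glu pair show the same gene in different surroundings, with the gene in capitals, 100 bases on either side in lower case, and both read in the direction of transcription. The first holds 9 CpG in these flanks and the second 2, while over 500 bp on either side the ratio was slightly lower at the first, as given above.
n-TEttc7, chr7:58399215-58399486, plus strand: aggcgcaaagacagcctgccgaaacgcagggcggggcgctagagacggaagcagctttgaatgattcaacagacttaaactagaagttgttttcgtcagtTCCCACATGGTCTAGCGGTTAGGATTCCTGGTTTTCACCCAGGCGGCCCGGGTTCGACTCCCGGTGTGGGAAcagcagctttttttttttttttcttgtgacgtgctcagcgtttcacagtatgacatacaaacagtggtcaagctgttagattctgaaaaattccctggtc
n-TEttc8, chr9:104408567-104408838, minus strand: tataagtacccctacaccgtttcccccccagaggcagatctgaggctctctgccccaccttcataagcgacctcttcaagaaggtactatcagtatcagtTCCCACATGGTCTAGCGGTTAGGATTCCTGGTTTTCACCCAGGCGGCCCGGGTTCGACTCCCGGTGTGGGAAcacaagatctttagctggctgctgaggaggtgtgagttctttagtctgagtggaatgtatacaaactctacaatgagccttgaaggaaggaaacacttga

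The Cys genes of chromosome 6 are a large group without a peak. The next window holds n-TCgca37, the first gene with their most common sequence, and has 0 CpG in its 200 flanking bases. This window, and n-TEttc8 above, were picked after the values were seen.
n-TCgca37, chr6:48133837-48134108, plus strand: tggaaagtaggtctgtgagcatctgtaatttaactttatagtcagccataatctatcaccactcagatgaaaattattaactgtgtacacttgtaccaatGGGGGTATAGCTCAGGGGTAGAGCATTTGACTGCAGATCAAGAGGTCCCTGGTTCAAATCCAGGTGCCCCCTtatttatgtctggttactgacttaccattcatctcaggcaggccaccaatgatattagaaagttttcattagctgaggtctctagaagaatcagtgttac
Counted from 1 at the first base of the gene, 3 Cys genes with a peak differ from n-TCgca37 by G16T alone (n-TCgca52) or by G16T, T50C and A62G (n-TCgca54 and n-TCgca55). These letters do not separate genes with and without a peak. The sequence of n-TCgca54 and n-TCgca55 is also that of n-TCgca56 on chromosome 11 and n-TCgca57 on chromosome 6, which had no peak.

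Of the 278 peaks, 202 (72.7%, 67.1 to 77.6) had their centre over 1 kb from a Pol II TSS of the GENCODE M21 annotation, small RNA genes left out. Among the 24223 other peaks of chromosomes 1 to 19 this share was 30.5% (29.9 to 31.1). The difference is much larger than either interval, but it was not tested, since peaks are not replicates. It is partly fixed by where tRNA genes lie, as 322 of the 386 were over 1 kb from a Pol II TSS. With TSSs of protein-coding genes alone the share of tRNA-adjacent peaks was 81.3%, and with RefSeq TSSs it was 69.8%. Without the histone and tRNA gene region of chromosome 13 from 21 to 24 Mb it was 64.9%. By distance, 76 peak centres lay within 1 kb of a TSS, 59 at 1 to 5 kb, 116 at 5 to 20 kb, 25 at 20 to 50 kb and 2 beyond 50 kb. The median distance was 5443 bp.

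These distal peaks were broader than distal peaks elsewhere. The 202 had a median width of 559.5 bp (quartiles 349.25 and 830.5), against 284 bp (218 and 473) in the 7390 other distal peaks, so that their lower quartile lay above the others' median. Peaks at the shortest width in the list, 200 bp, made up 0.99% of the former (2 peaks) and 14.5% of the latter. Distal refers to GENCODE TSSs. Some of the 202 lay within 1 kb of a RefSeq TSS, such as the widest (2076 bp, centre 976 bp from one), and their part in the widths was not tested. Next to a Pol II TSS the widths of both kinds overlapped almost fully: the median was 980.5 bp in the 76 tRNA-adjacent peaks and 959 bp in the 16833 others. Over all 278 peaks the median was 636.5 bp and the range was 200 to 3337 bp.

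**Figure D1:**
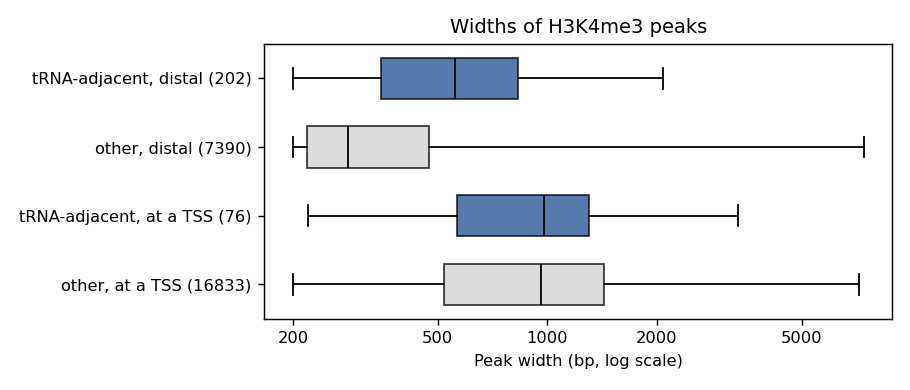
Widths of H3K4me3 peaks in bp on a log axis, for peaks with their centre over 1 kb from a Pol II TSS (distal) or within 1 kb (at a TSS). Boxes span the quartiles with the median as a line, whiskers reach the lowest and highest value, and the number of peaks is in brackets. The box of the distal tRNA-adjacent peaks (median 559.5 bp) is shifted to the right of that of other distal peaks (284 bp) but overlaps it. The boxes at TSSs nearly coincide.

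The peaks flanked the tRNA gene and mostly left it free. The gap between peak and gene had a median of 49 bp, and 55 of 278 peaks (19.8%) overlapped the gene. A further 116 came within 100 bp of it, 62 lay over 100 and up to 300 bp away and 45 farther. The centre fell on a tRNA gene in 1 peak, which also overlapped the neighbouring gene counted as its nearest. The centre lay upstream of the nearest tRNA gene in 185 peaks (66.5%, 60.8 to 71.8) and downstream in 93. Among distal peaks it was upstream in 137 of 202 (67.8%). Neighbouring genes could blur this, so it was counted again for genes over 1 kb from a Pol II TSS and without another tRNA gene within 2 kb, where it was 59 of 85 peaks (69.4%, 59.0 to 78.2). The outermost peaks inside the limit of 1 kb lay 868 and 906 bp from a tRNA gene, and the next ones outside it 1001 and 1015 bp. With a limit of 500 bp there were 248 peaks next to 239 tRNA genes, and with 2 kb 302 peaks next to 262.

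Around those isolated genes with a peak, 62 in number, the share of genes covered by a peak reached its highest value, 85.5%, at 282 bp upstream of the first base of the gene. It fell to 11.3% at its lowest point over the gene and rose again to 38.7% at 345 bp downstream. Over all 193 distal tRNA genes with a peak the values were 73.6% at 294 bp upstream, 8.29% and 41.5% at 543 bp downstream. Words of 75 bases centred on the first 72 bases of the isolated genes occurred once in the genome in 98.4% of cases on average, with a lowest value of 80.6% at any position. Part of tRNA gene sequence is thus repeated, and the part of read mapping in the dip was not tested.

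**Figure D2:**
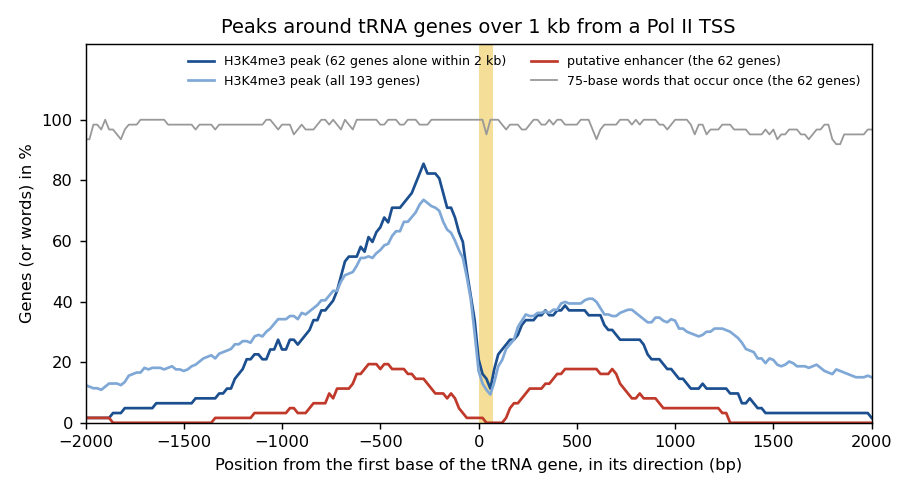
Share of tRNA genes over 1 kb from a Pol II TSS and with a peak that are covered by an H3K4me3 peak or a putative enhancer at each position, in %, against the distance in bp from the first base of the gene in its direction (the gene is the yellow band, drawn 72 bp long). The grey line is the share of 75-base words that occur once in the genome. Peak coverage is highest at 85.5% upstream, drops to 11.3% over the gene and is lower downstream, at up to 38.7%, while the grey line stays high.

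Most tRNA genes with a peak had more than 1. Of the 251, 101 had 1 peak within 1 kb, 128 had 2, 16 had 3, 4 had 4 and 2 had 5. The genes with 5 were n-TLaag8 and n-TPagg4 (chromosome 14, at 51063883-51063964 and 51064814-51064885), which stand close to each other. In 88 genes (35.1%) peaks lay on both sides with the gene free, in 75 (29.9%) only upstream and in 25 (9.96%) only downstream, whereas in 63 (25.1%) a peak overlapped the gene. Conversely, 109 of the 278 peaks were within 1 kb of 2 or more tRNA genes, up to 4. Upstream and downstream peaks had like widths, with medians of 641 and 620 bp.

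All 20 isotypes had at least 4 genes with a peak. The share was highest for Thr (16 of 17), Pro (14 of 15), Ala (19 of 21), Trp (7 of 8), Arg (20 of 23) and Phe (6 of 7). It was 13 of 16 for Ile, 20 of 25 for Leu, 8 of 10 for Tyr, 17 of 22 for Ser, 12 of 16 for Met and 15 of 21 for Val. Lower counts were found for Asp (11 of 16), Gly (18 of 28), Lys (16 of 25), Asn (8 of 13), Gln and Glu (9 of 15 and 12 of 20, both 60.0%) and His (6 of 11). With so few genes each, the intervals of these 19 isotypes overlapped: that of Thr ran from 73.0 to 99.0% and that of His from 28.0 to 78.7%. Cys stood apart with 4 of 57 genes (7.02%, 2.76 to 16.7).

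Isotypes also differed in how many of their genes have unique surroundings, whose part in these shares was not tested. Counting only genes whose flanks were over 95% unique, Asn had 8 of 10 genes with a peak, Asp 10 of 12, Gly 17 of 20, His 5 of 6 and Glu 11 of 14. Under this count Gln (8 of 14), Lys (14 of 21), Val (13 of 19) and Cys outside chromosome 6 (4 of 6) were below 70%, Val having been at 71.4% before, and Pro (14 of 14) and Trp (7 of 7) reached all genes.

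By anticodon, 46 of 48 had at least 1 gene with a peak, and in 14 every gene had one, Ala-AGC among them with 13 of 13. The 2 anticodons without were single genes, n-THatg1 (His-ATG, chr1:171669439-171669511) and n-TSgga1 (Ser-GGA, chr11:100538158-100538230). Their flanks were CpG-poor, with 0.14 and 0.13 of the expected CpG. No selenocysteine gene was among the tRNA genes used here. Of the 22 tRNA genes with an intron, 20 had a peak (all 4 each of Arg, Ile and Leu, and 8 of 10 Tyr genes).

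**Figure D3:**
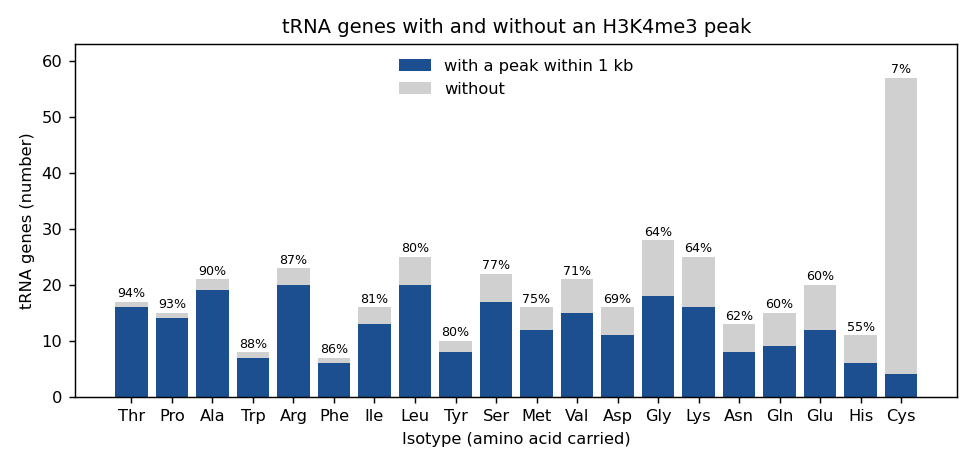
Number of tRNA genes of chromosomes 1 to 19 with (blue) and without (grey) an H3K4me3 peak within 1 kb, by isotype, with the share with a peak printed above each bar. From Thr (16 of 17) to His (6 of 11) more than 50% of the genes have a peak, and Cys (4 of 57) has few.

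The Cys genes without a peak lay mostly on chromosome 6. There, 49 Cys genes lay between chr6:47978997 and 48363603, 48 of them from 48133937 on, and 0 had a peak (upper limit of the interval 7.27%). The 385 kb held 4 peaks in all, the nearest of them 24858 bp from any of these genes, and 0 putative enhancers. The flanks of these genes were only in part unique, with a median of 80.6%, but 17 of them had flanks over 95% unique and of these 0 had a peak as well. Their CpG ratio had a median of 0.074 and a highest value of 0.32. They had the internal promoter motifs: 46 of 49 had the A box core and 47 the B box, and 28 carried the same sequence. Outside chromosome 6, 4 of 8 Cys genes had a peak, among them n-TCgca54 and n-TCgca55 on chromosome 11 and n-TCgca52 on chromosome 17. The gene n-TCgca47 on chromosome 9 had the common chromosome 6 sequence with 0 changes and no peak. Without the 49 genes, 251 of 337 tRNA genes (74.5%, 69.6 to 78.8) had a peak.

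Clusters were chains of tRNA genes at most 10 kb apart. Of the 386 genes, 100 stood alone, 97 were in 39 clusters of 2 to 4 genes and 189 in 22 clusters of 5 or more. With the Cys genes of chromosome 6 left out, a peak was found at 54 of 98 lone genes (55.1%, 45.2 to 64.6), 79 of 91 genes in small clusters (86.8%, 78.4 to 92.3) and 118 of 148 in clusters of 5 or more (79.7%, 72.5 to 85.4). Clustered genes share peaks, so these intervals are too narrow. A peak within 1 kb of several clustered genes also counted for each of them, which cannot occur at lone genes. The part of this counting in the shares was not tested.

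Every gene had a peak in 8 of the 22 clusters of 5 or more, no gene had one in 4, and the other 10 held genes of both kinds. Full clusters lay on chromosome 1 (171033942-171045055 and 171101838-171111515, 5 genes each), chromosome 3 (96497781-96501518, 5 genes), chromosome 5 (125404250-125409543, 5 genes), chromosome 11 (69037003-69041897 and 69110465-69125248, 7 genes each), chromosome 13 (21160785-21172942, 9 genes) and chromosome 17 (23533962-23550335, 7 genes). The first of the chromosome 11 clusters, 4.895 kb long with genes of 7 isotypes, shared 4 peaks among its 7 genes.

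On chromosome 13, tRNA genes lie among replication-dependent histone genes. Between 21 and 24 Mb, 90 of 104 tRNA genes had a peak (86.5%, 78.7 to 91.8), against 161 of 282 elsewhere (57.1%, 51.3 to 62.7) and 161 of 233 elsewhere without the chromosome 6 Cys genes (69.1%, 62.9 to 74.7). Of the 278 peaks, 93 lay in this region of chromosome 13. Its other clusters had 9 of 10 genes with a peak (21234045-21279768), 13 of 15 (21907111-21940995), 5 of 6 (22015791-22030173), 5 of 6 (23298781-23317538), 13 of 14 (23425646-23453514), 4 of 6 (23498106-23506590) and 5 of 8 (23517203-23530419). On chromosome 19 it was 7 of 8 (12002236-12012338).

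The empty clusters were the 3 of Cys genes on chromosome 6 (48133937-48164172, 48244316-48317586 and 48332840-48363603, with 9, 22 and 10 genes) and 1 on chromosome 3 (96451425-96464043, 5 Asn and His genes). The flanks of the latter were 2.90% unique in the median, and the part of read mapping in the absence of peaks was not tested. Low values were also found in the cluster of 15 genes on chromosome 1 (171064164-171081946), in which a set of Glu, Gly, Asp, Leu and Gly genes recurs 3 times. It had a single peak, chr1:171064395-171065419, within 1 kb of 4 genes of the first set, and the median uniqueness of its flanks was 20.5%. On chromosome 3, 3 of 5 genes had a peak at 96332740-96351237.

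**Figure D4:**
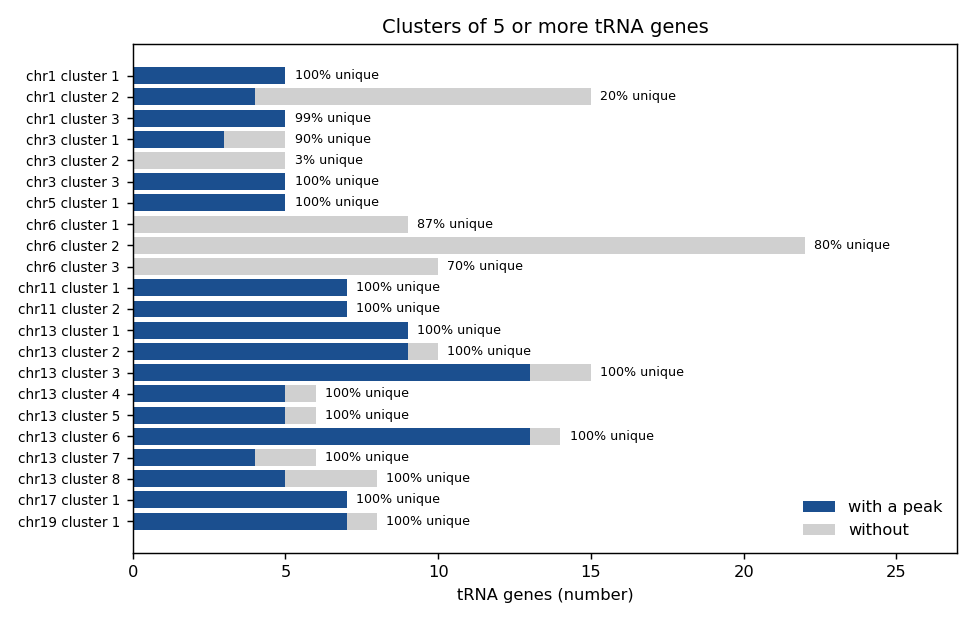
Clusters of 5 or more tRNA genes (chains with gaps of at most 10 kb), in order along each chromosome, with the number of genes with (blue) and without (grey) a peak. Beside each bar stands the median share of 75-base words in the flanks that occur once in the genome. The clusters without any peak are the 3 of chromosome 6 and the second of chromosome 3, and the second of chromosome 1 has a peak at 4 of 15 genes.

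Peaks were found at tRNA genes near Pol II promoters and far from them. Of the 64 tRNA genes within 1 kb of a Pol II TSS, 58 had a peak (90.6%, 81.0 to 95.6), and of the 322 farther away 193 had one (59.9%, 54.5 to 65.1). With the chromosome 6 Cys genes left out, the share was 62 of 85 genes at 1 to 5 kb (72.9%), 110 of 147 at 5 to 20 kb (74.8%) and 19 of 28 at 20 to 50 kb (67.9%, 49.3 to 82.1), values that lie within each other's intervals. Beyond 50 kb it was 2 of 14 (14.3%, 4.01 to 39.9), namely n-TEttc7 and n-TAagc18. Genes that lay in introns of protein-coding genes had a peak in 14 of 28 cases, those overlapping their exons in 4 of 5, and those outside protein-coding genes in 233 of 304, chromosome 6 Cys genes left out.

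The peaks farthest from any Pol II TSS were a pair around n-TEttc7, chr7:58398869-58399202 and chr7:58399427-58399666, whose centres were 119127 and 118616 bp away from the nearest one, that of the pseudogene Gm44852. They were 334 and 240 bp wide, and lay 113 bp upstream and 41 bp downstream of the gene shown above. The next 3 were on chromosome 13. The peak chr13:21242665-21243552, 49623 bp from the TSS of Gpx5, was 24 bp downstream of n-TAagc18. The pair chr13:21234335-21234680 and chr13:21233523-21233998, 44646 and 43899 bp from the TSS of Trim27, stood on either side of n-TAagc17.

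The widest peaks, by contrast, lay at Pol II promoters. The widest had 3337 bp, with its centre 317 bp from a TSS. Next came chr11:69120973-69123514 (2542 bp, at 9130213A22Rik and overlapping n-TRtct4), chr7:28370448-28372680 (2233 bp, at Plekhg2, 319 bp from n-TIaat16), chr14:79480519-79482722 (2204 bp, at Wbp4 and overlapping n-TEttc4) and chr11:69059710-69061898 (2189 bp, at the antisense RNA gene 9330160F10Rik, 422 bp from n-TIaat4). Of the 76 peaks within 1 kb of a TSS, the nearest TSS was that of a protein-coding gene in 49 and of a lincRNA gene in 14. For these peaks the part of the tRNA gene and that of the promoter in the H3K4me3 cannot be told apart. One of the promoters, chosen after its name was seen, was that of Polr3e, a subunit of Pol III itself, with a peak of 1021 bp (chr7:120917769-120918789) 171 bp from n-TLaag4.

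The tRNA genes with a peak lay in CpG-richer sequence. In the 500 bp on either side of the gene the median ratio of observed to expected CpG was 0.61 (quartiles 0.49 and 0.76) for the 251 genes with a peak. It was 0.30 (0.20 and 0.51) for the 86 without one outside the chromosome 6 Cys genes. Over 1 kb from a Pol II TSS the medians were 0.58 and 0.29. The GC content differed less, with 45.0% against 42.8%.

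By class, and only for genes with flanks over 95% unique and outside the chromosome 6 Cys genes, a peak was found at 2 of 20 genes with a ratio under 0.2 (10.0%, 2.79 to 30.1), 21 of 45 from 0.2 to 0.4 (46.7%, 32.9 to 60.9) and 85 of 92 from 0.4 to 0.6 (92.4%, 85.1 to 96.3). Above that it was 83 of 86 and, from 0.8 on, 44 of 46. Leaving out genes within 1 kb of a Pol II TSS gave 2 of 19, 20 of 44, 74 of 81, 62 of 65 and 23 of 25. The 2 genes with a peak in the lowest class were n-TGgcc10 and n-TGgcc11 on chromosome 8. Of the 5 genes without a peak at a ratio of 0.6 or more, 4 (n-TVaac7, n-TLaag6, n-TRacg4 and n-TQttg4) had a peak at 1012, 1349, 1032 and 1407 bp, just past the limit, and for n-TQctg2 the nearest was 21732 bp away.

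**Figure D5:**
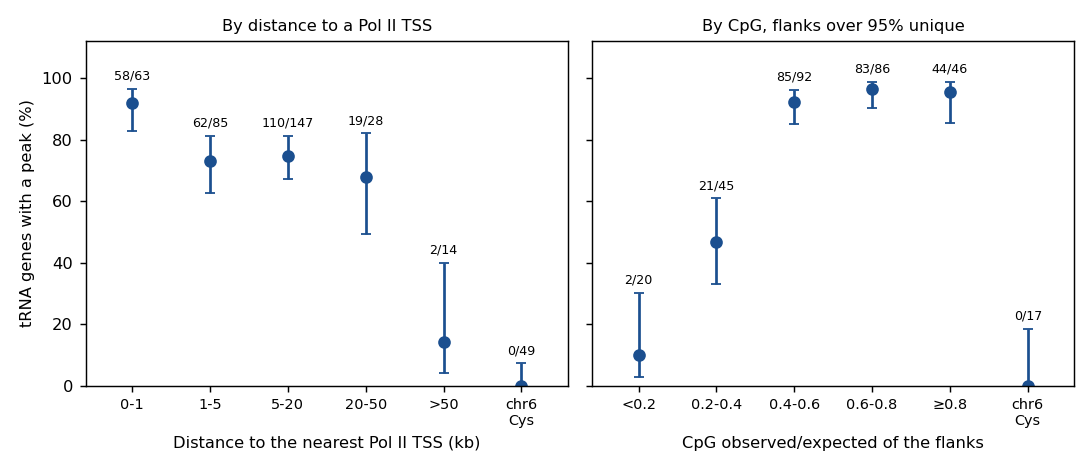
Share of tRNA genes with an H3K4me3 peak within 1 kb, in %, by distance to the nearest Pol II TSS in kb (left) and by the observed to expected CpG ratio of the 500 bp on either side (right, only genes with flanks over 95% unique), with the Cys genes of chromosome 6 apart. Points are shares with Wilson 95% intervals, and the counts stand above. The share is similar from 1 to 50 kb and lower beyond, and it rises from 2 of 20 genes in the lowest CpG class to over 90% from a ratio of 0.4 on.

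The run of T that ends transcription was more frequent at genes with a peak, while the shares with internal promoter motifs had overlapping intervals. A run of TTTT within 20 bases downstream of the gene, the usual Pol III stop signal, was present at 226 of the 251 genes with a peak (90.0%, 85.7 to 93.2) and at 49 of the 86 without (56.98%, 46.4 to 66.9), chromosome 6 Cys genes left out here and in what follows. Those Cys genes, 0 of them at a peak, had TTTT in 38 of 49 cases (77.6%, 64.1 to 87.0). The B box GTTCNANNC was present in 233 of the 251 (92.8%) and 74 of the 86 (86.0%), and the A box core TNGNNNAG within the first 40 bases in 225 (89.6%) and 73 (84.9%), with overlapping intervals. The genes were searched in their own direction. They were not limited to those with unique flanks, and the part of read mapping in these shares was not tested. In windows of the length of a tRNA gene that end 500 bp to the left of each gene, searched on both strands, the B box was found in 6.99%, the A box core in 40.7% and TTTT, in the first 20 bases of either strand, in 21.2%. Of 32851 RefSeq promoters of 300 bases, 9.32% held the B box on either strand. A match describes the letters only and is no evidence of binding.

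The share with a peak was lower in most classes of genes that departed from the usual sequence of their anticodon. It was 148 of 179 (82.7%, 76.5 to 87.5) for genes with the most common sequence of their anticodon, 52 of 68 at 1 to 2 changes, 24 of 41 at 3 to 5 and 8 of 21 at 6 to 10 changes (38.1%, 20.8 to 59.1). Over 10 changes it was 19 of 28, a class that holds second sequence families of an anticodon such as the Met genes, where initiator and elongator tRNAs share CAT. Among genes with flanks over 95% unique, those with a B box, TTTT and at most 2 changes had a peak in 161 of 174 cases (92.5%, 87.6 to 95.6), those with 2 of these 3 features in 65 of 84, with 1 in 9 of 27, and with none in 0 of 4. These counts leave out the chromosome 6 Cys genes. Of those, 17 had such flanks and 0 of the 17 had a peak, although some, such as n-TCgca40 and n-TCgca41, had all 3 features.

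A second readout that the rule did not use was the list of putative enhancers of control cells, regions with H3K4me1, H3K27ac and open chromatin at least 1 kb from annotated promoters. There were 65 of these within 1 kb of a tRNA gene. They stood next to 68 of the 251 tRNA genes with an H3K4me3 peak (27.1%, 22.0 to 32.9) and 0 of the 135 without (upper limit 2.77%). Leaving out genes within 1 kb of a Pol II TSS, it was 56 of 193 against 0 of 129, and among genes with flanks over 95% unique 66 of 235 against 0 of 71. Like the peaks, these regions kept clear of the gene: 3 of 65 overlapped it. Around the isolated tRNA genes their coverage reached 19.4% at 567 bp upstream and 17.7% at 388 bp downstream, farther from the gene start on the upstream side than the highest peak coverage at 282 bp.

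Distal H3K4me3 peaks elsewhere overlapped such a region about as often. Of the 202 distal tRNA-adjacent peaks 45 did (22.3%, 17.1 to 28.5), and of the 7390 other distal peaks 22.8% (21.9 to 23.8). Most distal tRNA-adjacent peaks were thus not on the enhancer list. The enhancers near tRNA genes had a median width of 410 bp, against 407 bp for the other 32400 of chromosomes 1 to 19.

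Listed genes of Pol III and its factors, of aminoacyl-tRNA synthetases and of tRNA processing had peaks throughout. All 28 listed genes of Pol III and its factors had a peak within 1 kb of a TSS. Among them were Polr3a, the largest subunit, Brf1 and Bdp1, parts of TFIIIB, Gtf3c1, part of TFIIIC, and Maf1, a repressor of Pol III. A peak was also found at all 21 listed aminoacyl-tRNA synthetase genes, the mitochondrial Fars2 among them. The same held for all 30 listed genes of tRNA processing, such as Elac2, which trims the 3′ end. For comparison, 60.3% of the 20807 protein-coding genes of chromosomes 1 to 19 had one (59.6 to 61.0). The lists were chosen by gene name and were not matched to this background for expression in these cells. The median of the widest peak per gene was 1116.5, 1360 and 1058 bp for the 3 lists.

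Other Pol III genes were mixed. Of 9 that could be matched, 8 had a peak within 1 kb, among them Rn7sk (7SK RNA, 604 bp), Rmrp (the RNA of RNase MRP, 902 bp), Rpph1 (the RNA of RNase P, 457 bp), the 7SL genes Rn7s1 and Rn7s2 (1231 and 404 bp) and the Y RNA genes Rny1 and Rny3 (323 and 208 bp). Vaultrc5 had 2 peaks, the wider of 300 bp, and was overlapped by a peak. Rn7sk, Rmrp, Rpph1 and Rn7s1 were within 300 bp of a Pol II TSS. Rny1, Rny3, Rn7s2 and Vaultrc5 were 1696, 4650, 4018 and 6008 bp from one. The gene annotated as Rnu6 (U6 RNA) had none. Neither had any of the 49 autosomal 5S rRNA genes (upper limit 7.27%), whose read mapping was not measured.

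The labelled cell type was checked on the same list. All 10 fibroblast and mesenchymal markers (Col1a1, Col1a2, Col3a1, Thy1, Vim, Pdgfra, Pdgfrb, Fn1, S100a4 and Twist1) had a peak within 1 kb of a TSS, and of 10 markers of other cell types 1 did (Epcam, 724 bp). A peak marks a promoter and does not measure expression.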

How the data were processed

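Per the labels and the study's methods, the authors trimmed single-end reads of 75 cycles, aligned them to mm10 with BWA, filtered them with SAMtools, merged replicates and called narrow peaks with MACS2 (versions not given in the sources used here). They deposited 2 lists, which hold positions only: 25431 H3K4me3 peaks over all samples and 32965 putative enhancers of control cells. The lists hold no counts per sample, so depth is unknown, replicate error cannot be given and the change after dTAG was not analysed. Peak starts count from 0 (shortest end minus start 200) and had 1 added. A narrow peak list is cut by the caller's threshold, so an absent peak is not absent H3K4me3, and reads from repeated sequence are lost or placed at random.

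tRNA genes and RefSeq TSSs came from GRCm38.p6, other TSSs from GENCODE M21. Overlaps, distances, CpG ratios and 75-base word counts (primary assembly of 66 sequences) were computed with Python 3.11, NumPy, pandas, SciPy and Numba and checked on simulated regions with known answers. Shares have Wilson 95% intervals, and no test was run, since regions are not replicates. Named were all isotypes, clusters of 5 or more genes, the 5 widest and 5 farthest peaks, pairs of identical genes and the gene lists. The pair with the most unique flanks was chosen per isotype. The B box letters, the CpG classes and the count of 3 features were chosen after values were seen. A further sequence window is not reported here. Members and lists were chosen with earlier results of these data known. Alternatives changed the window, smallest width, TSS set, cluster gap and genes counted.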

Additional observations from a re-analysis of the deposited data

Results flagged for a closer look

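Chromosome X lies outside the comparisons above and carries peaks next to tRNA genes too. There 2 H3K4me3 peaks stood within 1 kb of 1 of 17 annotated tRNA genes (5.88%, Wilson 95% interval 1.05 to 26.98). The gene was n-TVtac3 (chrX:160766110-160766182, plus strand), and the peaks, 402 and 401 bp wide, lay on either side of it (chrX:160765633-160766034 and chrX:160766191-160766591). No replicate values exist, and no samples or groups were compared.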

How the results depend on the processing

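Of 39 alternatives to 10 results, 22 stayed within the interval of the value given above (counts within 1.5 times). The number of peaks (278) became 55 when only overlap with the gene counted, 169 with peaks of at least 500 bp and 185 without chromosome 13 from 21 to 24 Mb. The share of tRNA genes with a peak (65.0%) became 16.3% for overlap alone, 52.1% with peaks of at least 500 bp, 57.1% without the chromosome 13 region and 59.9% for genes over 1 kb from every Pol II TSS. Chosen after seeing the data, leaving out the Cys genes of chromosome 6 gave 74.5% and flanks over 95% unique 76.8%. The share of clustered genes with a peak (68.9%) was 82.4% without those Cys genes. The share of peaks over 1 kb from a TSS (72.7%) was 81.3% with protein-coding TSSs and 64.9% without the chromosome 13 region. The median width (636.5 bp) was 885 bp for peaks of at least 500 bp, 1360 bp with peaks merged within 1 kb and 821 bp for overlapping peaks. A longer B box, with 1 more fixed base at each end, was searched first, and the shorter core was taken after its values were seen. The longer form was present in 81.7% of genes with a peak (core 92.8%) and 73.3% of those without (core 86.0%). With it, 141 of 151 genes with all 3 features had a peak (93.4%), 78 of 96 with 2, 16 of 36 with 1 and 0 of 6 with none. The chromosome 6 Cys genes were again left out of these counts. The upstream share and the enhancer share stayed within their intervals. With patches and alternate loci counted, 226 of 294 genes with flanks over 95% unique had a peak. No paired analysis was possible because positions come without a value for any library. For that reason the alternatives for the change after dTAG were not run.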
